A study of Mus musculus with 6 samples.

Results

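Basophils, mast cells and eosinophils are granulocytes and tissue cells of allergic and anti-parasite responses, and 10 genes that mark them were followed through sorted mouse haematopoietic stem cells (HSCs). The 10 genes were chosen by symbol (Cpa3, Mcpt8, Prss34, Ms4a2, Fcer1a, Cd200r3, Prg2, Epx, Hdc and Il1rl1) out of 49585 genes counted, and all 10 were found and passed the filter on low counts. Bulk RNA sequencing was done on bone marrow cells of untreated C57BL/6 mice aged 8 to 16 weeks, with no genetic change in either group. The cells were sorted as lineage-negative, Kit-positive, Sca-1-positive, CD48-negative, CD150-positive, CD34-negative and CD201-positive, and were then divided into a CD38-positive (high surface CD38) and a CD38-negative (low surface CD38) population. Each library holds pooled cells of 10 mice, with 3 libraries per population; the design text joins them as 3 pairs of 1 CD38-positive and 1 CD38-negative library and does not say what the libraries of a pair share. The series concerns CD38 and HSC dormancy, so the question for these genes is whether their transcripts differ between the populations.

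As background, the 3 cell types store mediators in granules and share several surface receptors. Basophils and mast cells carry the high-affinity IgE receptor, whose ligand-binding chain is encoded by Fcer1a and whose signal-amplifying beta chain by Ms4a2, and both make histamine with the enzyme encoded by Hdc. Their proteases differ: Mcpt8 and Prss34 mark mouse basophils, Cpa3 is made by mast cells and basophils, and chymases and tryptases such as Cma1, Mcpt4 and Tpsb2 mark tissue mast cells. Eosinophils fill their granules with major basic protein (Prg2) and eosinophil peroxidase (Epx). The transcription factor GATA2 takes part in the formation of basophils and mast cells, GATA1 in that of eosinophils, and GATA2 is also needed by HSCs.

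Total counts were 16771180 to 18558610 per library, so the floor of 3 counts lay at 0.166 to 0.183 counts per 1 M reads (CPM, on library sizes adjusted by TMM, edgeR's default scaling). The 7 HSC markers used (Procr, Slamf1, Kit, Ly6a, Hlf, Mecom and Fgd5) were detected in every library and summed to 338 to 1075 CPM. Markers of other cell types were present as well, although the sort was set to leave out lineage-positive cells. The 10 neutrophil markers summed to 68772 to 156411 CPM, the 7 erythroid markers to 2485 to 8917 CPM and the 8 B and plasma cell markers to 312 to 3511 CPM. In bulk libraries such as these, fewer cells of a type and less RNA per cell cannot be told apart. Nothing in the labels says that the libraries of a population came from separate sorts, so p-values measure the spread between these libraries.

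All 10 genes were detected in all 6 libraries, and their sum ranged from 1150 to 2335 CPM. Levels of different genes were compared as CPM per kilobase of merged exons. Prg2 was highest at 843 ± 379 CPM per kilobase (SD, n = 6), and in no library was another of the 10 genes above it. Prss34 followed at 190 ± 112 (SD, n = 6), Mcpt8 at 98.9 ± 50.2 and Cpa3 at 92.9 ± 39.0 CPM per kilobase. Mcpt8 was above Cpa3 in 4 of 6 libraries, so these neighbours did not differ beyond their spread. Hdc (34.4 ± 6.94 CPM per kilobase) and Epx (31.0 ± 16.6) also overlapped, with Hdc above Epx in 2 of 6 libraries. Ms4a2 (11.5 ± 4.25 CPM per kilobase) and Fcer1a (10.1 ± 5.38) overlapped in the same way, with Ms4a2 higher in 4 of 6 libraries. Il1rl1 at 1.72 ± 0.54 and Cd200r3 at 0.54 ± 0.28 CPM per kilobase came last; their ranges overlapped, but Il1rl1 was higher within each of the 6 libraries.

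None of the 10 genes passed the test between CD38-positive and CD38-negative cells. By edgeR's quasi-likelihood F-test, which held the pair as a replicate block, 0 of the 10 passed an adjusted p of 0.05. Of all 14785 genes tested 2 did (0.0135%), 1 higher (0.00676%) and 1 lower (0.00676%) in CD38-positive cells, and the 10 genes' adjusted p-values ran from 0.926 to 0.995. At an unadjusted p under 0.05 there were also 0 of 10, where 5.08% of all tested genes passed, and DESeq2 with the same block called 0 of 10. For 0 of the 10 genes were the CPM ranges of the populations separate, which was the case for 6.53% of tested genes. Fitted log2 fold changes were positive for 5 and negative for 5, with a median of 0.12 beside 0.00 for all tested genes.

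**Figure D1:**
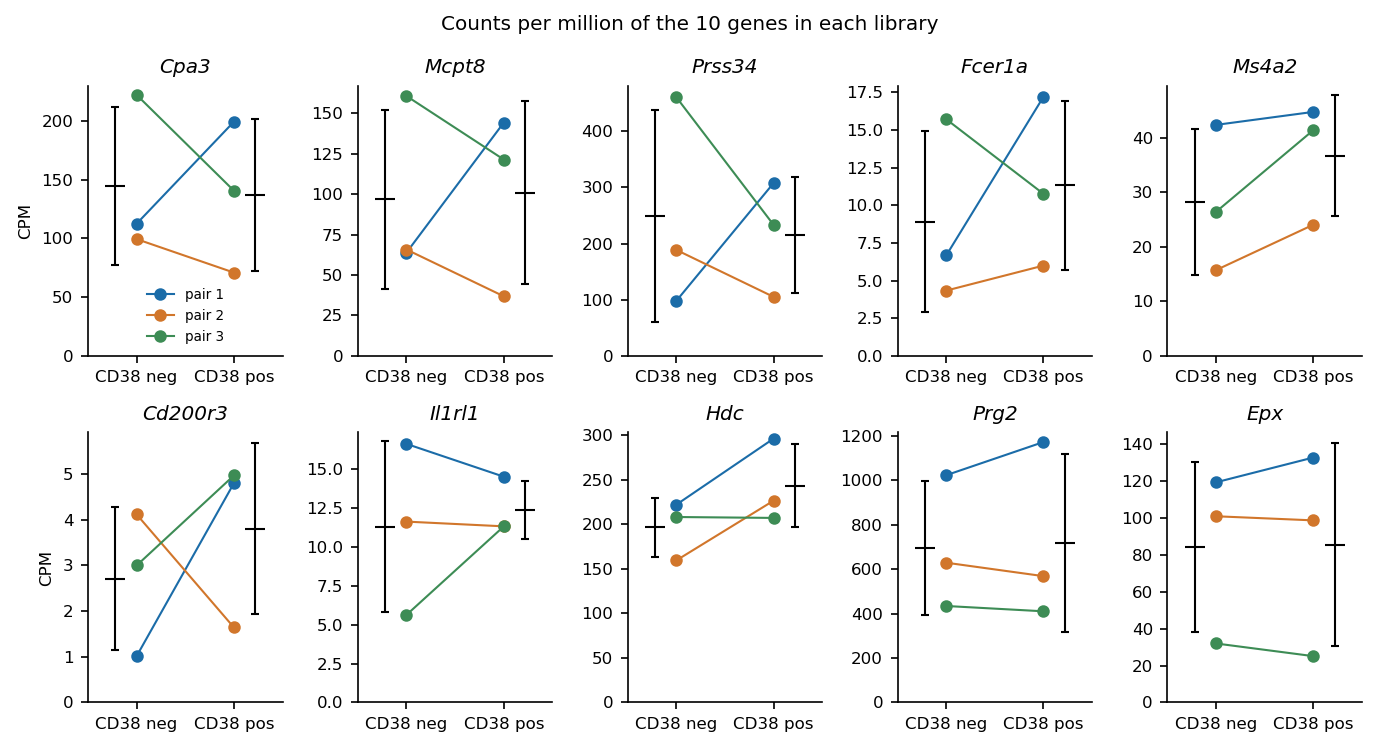
CPM of each of the 10 genes (linear axis from 0) in the CD38-negative and CD38-positive library of each pair, joined by a line; black bars give the mean and SD of the 3 libraries of a population. Lines cross for Cpa3, Mcpt8 and Prss34, while for Prg2 and Epx they lie flat and apart, at 1024 to 1173 CPM of Prg2 in pair 1 and 410 to 434 CPM in pair 3.

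The upstream sequences of 5 of the 10 genes are shown as examples, because GATA factors are central to these lineages. RefSeq windows (GRCm38.p6) were matched by symbol for 9 of the 10 genes, all but Prg2. Each line gives the 250 bases before a RefSeq start site, 5′ to 3′ on the gene's strand. Capitals mark matches on either strand to a GATA word, which is AGATAA, or the same letters with T for the first base (TGATAA), or either of these with G for the last base (AGATAG and, with both changes, TGATAG).
Cpa3, chr3:20242182-20242431, minus strand: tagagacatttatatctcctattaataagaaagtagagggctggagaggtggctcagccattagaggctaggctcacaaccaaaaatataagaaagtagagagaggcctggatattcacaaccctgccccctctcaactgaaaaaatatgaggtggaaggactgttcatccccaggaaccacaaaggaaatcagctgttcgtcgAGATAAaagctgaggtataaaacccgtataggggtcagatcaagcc
Prss34, chr17:25298144-25298393, plus strand: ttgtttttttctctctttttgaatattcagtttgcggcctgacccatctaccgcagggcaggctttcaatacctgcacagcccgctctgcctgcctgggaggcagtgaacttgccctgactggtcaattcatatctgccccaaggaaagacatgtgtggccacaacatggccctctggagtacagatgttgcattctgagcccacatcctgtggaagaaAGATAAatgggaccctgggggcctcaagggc
Ms4a2, chr19:11623720-11623969, minus strand: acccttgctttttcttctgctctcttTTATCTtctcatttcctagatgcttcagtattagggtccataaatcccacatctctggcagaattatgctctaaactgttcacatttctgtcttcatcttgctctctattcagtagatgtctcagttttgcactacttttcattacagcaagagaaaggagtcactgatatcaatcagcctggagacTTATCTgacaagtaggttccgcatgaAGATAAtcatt
Il1rl1, chr1:40429320-40429569, plus strand: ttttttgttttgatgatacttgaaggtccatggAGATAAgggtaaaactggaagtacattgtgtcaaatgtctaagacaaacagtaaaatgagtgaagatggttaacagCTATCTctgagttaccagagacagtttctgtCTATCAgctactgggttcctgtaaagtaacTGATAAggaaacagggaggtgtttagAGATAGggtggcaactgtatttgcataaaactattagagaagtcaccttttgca
Epx, chr11:87875537-87875786, minus strand: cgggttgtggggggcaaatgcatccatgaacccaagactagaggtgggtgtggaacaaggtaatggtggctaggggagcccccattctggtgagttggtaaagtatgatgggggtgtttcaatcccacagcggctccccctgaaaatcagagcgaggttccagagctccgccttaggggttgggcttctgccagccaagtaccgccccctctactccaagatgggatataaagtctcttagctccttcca
A GATA word was found in 7 of the 9 genes with a window. Il1rl1 has windows at separate start sites, and by window the count was 8 of 10. Of all 32851 RefSeq windows of this length 26.5% hold one. Cpa3 had 1 match, which began 46 bases before the start site, and Prss34 had 1 at 31 bases. Ms4a2 had 3, at 224, 37 and 11 bases, and the window at the upstream start site of Il1rl1 had 5, at 217 to 54 bases. Cd200r3 had 3 matches, at 115, 39 and 33 bases, whereas 6.4% of all windows hold 2 or more. Fcer1a had 1 at 92 bases, Hdc 1 at 221 bases and the other window of Il1rl1 1 at 103 bases. The Hdc window (126618679 to 126618928) lies inside the gene's annotated span, which reaches 126619299. Mcpt8 and Epx had none in this window. The E-box word CANNTG was found for 8 of the 9 genes, or in 9 of 10 windows (66.2% of all windows). The C/EBP word TTNNGNAA was found for 3 of 9 genes, or in 4 of 10 windows (36.8% of all windows). The 3 words were counted separately, and the matches describe letters only.

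Cpa3 (ENSMUSG00000001865, GRCm38 chromosome 3, 20215620 to 20242181, minus strand, protein coding) encodes the carboxypeptidase stored in mast cell granules. It was at 199, 71.0 and 141 CPM in CD38-positive replicates 1, 2 and 3, and at 113, 99.5 and 222 CPM in their CD38-negative partners. The populations overlapped: the highest library was CD38-negative replicate 3 and the lowest CD38-positive replicate 2. Its log2 fold change, CD38-positive relative to CD38-negative, was -0.11 (SE 0.26, 95% interval -0.67 to 0.44, edgeR adjusted p = 0.967), higher in 1 of 3 pairs.

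Mcpt8 (ENSMUSG00000022157, chromosome 14, 56082166 to 56085273, minus strand), a granzyme-related serine protease of basophils, was at 144, 36.8 and 121 CPM in CD38-positive libraries. It was at 63.8, 65.7 and 161 CPM in CD38-negative libraries, so the populations overlapped. Pair 1 had the higher value in the CD38-positive library and pairs 2 and 3 in the CD38-negative library. The fit gave a log2 fold change of -0.03 (SE 0.30, 95% interval -0.68 to 0.62, edgeR adjusted p = 0.992).

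Prss34 (ENSMUSG00000056399, chromosome 17, 25298394 to 25300165, plus strand), a tryptase-like protease of basophils, was at 308, 105 and 233 CPM in CD38-positive libraries. It was at 98.1, 189 and 461 CPM in CD38-negative libraries. The paired differences were 1.65, -0.84 and -0.98 on the log2 scale, so the sign was not shared, and the fit gave -0.11 (SE 0.40, 95% interval -0.96 to 0.74, edgeR adjusted p = 0.981). The interval reaches -0.96 on the log2 scale, so the absence of a call does not show equal levels. All 3 proteases changed sign with the pairs used: Cpa3, Mcpt8 and Prss34 had -0.57, -0.62 and -0.91 without pair 1, 0.0689, 0.37 and 0.32 without pair 2, and 0.17, 0.17 and 0.40 without pair 3.

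The 3 proteases were highest in the same libraries. CD38-negative replicate 3 led for each, at 844 CPM for their sum, and CD38-positive replicate 1 came second for each, at 651 CPM. The lowest library was CD38-positive replicate 2 for Cpa3, Mcpt8 and the sum (213 CPM), and CD38-negative replicate 1 for Prss34. Across the 6 libraries log2 CPM of Cpa3 and Mcpt8 had a Pearson r of 0.97, Cpa3 and Prss34 0.88, and Mcpt8 and Prss34 0.90; these are descriptions over 6 libraries. The ratio of Prss34 to Mcpt8 reads ran from 1.54 to 2.87 between libraries, and that of Cpa3 to Mcpt8 reads from 1.16 to 1.93. The summed neutrophil markers were likewise lowest in CD38-positive replicate 2 (68772 CPM) and highest in CD38-positive replicate 1 (156411 CPM), followed by CD38-negative replicate 3 (127535 CPM); their part in the protease values was not tested.

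Chymases and tryptases of tissue mast cells were at or near 0. Of 9 such genes (Cma1, Cma2, Mcpt1, Mcpt2, Mcpt4, Mcpt9, Tpsab1, Tpsb2 and Tpsg1), 6 had no read in any library, which allows up to 3 counts or 0.166 to 0.183 CPM in each. Cma1, Mcpt2 and Tpsg1 had reads, and the 9 genes together had 14 reads in the 6 libraries. Cpa3, Mcpt8 and Prss34 had 48379 reads between them. The label mast cell therefore rests here on genes that basophils share (Cpa3, Hdc and the IgE receptor), and no gene of the 10 marks mast cells alone. Of the 15 genes listed as mast cell and basophil proteases and granule partners, which include the tryptase-like genes Prss28 and Prss29 known from the uterus, 4 could be tested and 0 passed the adjusted threshold. Srgn, the proteoglycan core that holds granule proteases, was at 764 to 1738 CPM, and its fitted difference was -0.25 on the log2 scale (edgeR adjusted p = 0.938). Ctsg, the cathepsin G gene that neutrophil precursors also express, was at 392.5 to 1173 CPM, and Ndst2, an enzyme of heparin synthesis, at 4.28 to 11.5 CPM; their log2 fold changes were 0.00 and 0.04. Gzmb, a granzyme gene, had a log2 fold change of 1.47 with an unadjusted p of 0.0411 and an adjusted p of 0.926 in edgeR, and was not higher in pair 3.

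The chains of the IgE receptor were present at lower levels. Fcer1a (ENSMUSG00000005339, chromosome 1, 173221284 to 173227214, minus strand) was at 17.2, 6.00 and 10.8 CPM in CD38-positive replicates 1, 2 and 3. Its CD38-negative partners held 6.67, 4.34 and 15.7 CPM. The groups overlapped across nearly their whole range, and the log2 fold change was 0.42 (SE 0.34, 95% interval -0.31 to 1.15, edgeR adjusted p = 0.932), higher in 2 of 3 pairs. It was -0.0617 without pair 1 and 0.93 without pair 3.

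Ms4a2 (ENSMUSG00000024680, chromosome 19, 11615523 to 11623719, minus strand) was at 44.7, 24.0 and 41.4 CPM in CD38-positive and at 42.3, 15.7 and 26.4 CPM in CD38-negative libraries. Its CD38-positive library was the higher one in 3 of 3 pairs, with log2 differences of 0.08, 0.61 and 0.65, while the populations as wholes overlapped. The log2 fold change was 0.44 (SE 0.22, 95% interval -0.02 to 0.91), with an unadjusted p of 0.0593 and an adjusted p of 0.926 in edgeR. It was the gene of the 10 with the smallest unadjusted p. Ms4a2 and Fcer1a encode partner chains, yet their read ratio moved: Fcer1a had 0.158 reads per Ms4a2 read in CD38-negative replicate 1 and 0.595 in CD38-negative replicate 3. The third chain, Fcer1g, is shared with other Fc receptors and expressed in many myeloid cells, and was at 309 to 546 CPM, with a fitted difference of 0.29 on the log2 scale (edgeR adjusted p = 0.929).

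Signalling genes below the IgE receptor were measured in full: 15 of 15 were tested, 0 were called, and their median log2 fold change was -0.04. Lat, an adaptor that docks signalling proteins at the membrane, was at 22.1, 19.5 and 24.88 CPM in CD38-positive and 24.95, 34.5 and 35.0 CPM in CD38-negative libraries. Its ranges nearly touched but did not overlap, as for 6.53% of tested genes, and its log2 fold change was -0.50 (unadjusted p 0.0423, adjusted p = 0.926 in edgeR). Lyn, the kinase that starts the signal, had 0.49 (adjusted p = 0.926). The phosphatase gene Ptpn6 and the phospholipase gene Plcg2, the most abundant after Fcer1g, had 0.22 and 0.29.

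Il1rl1 and Cd200r3 encode the remaining surface receptors. Il1rl1 (ENSMUSG00000026069, chromosome 1, 40429570 to 40465415, plus strand) encodes ST2, the receptor for interleukin-33, found on mast cells, basophils and some lymphoid cells. It was at 14.5, 11.3 and 11.3 CPM in CD38-positive and at 16.6, 11.6 and 5.63 CPM in CD38-negative libraries. The 3 CD38-positive libraries lay within the range of the CD38-negative ones, and the log2 fold change of 0.24 (SE 0.29, 95% interval -0.38 to 0.86, edgeR adjusted p = 0.945) came from pair 3. It was -0.12 without pair 3 and 0.47 without pair 1.

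Cd200r3 (ENSMUSG00000036172, chromosome 16, 44943678 to 44981380, plus strand), an activating receptor of the CD200 receptor family on basophils and mast cells, had the fewest reads. It had 80, 29 and 90 reads in CD38-positive and 17, 74 and 49 reads in CD38-negative libraries, or 4.80, 1.64 and 4.97 against 1.01, 4.11 and 2.996 CPM. Its paired differences of 2.12, -1.27 and 0.71 on the log2 scale had the widest spread among the 10 genes. The log2 fold change was 0.53 (SE 0.55, 95% interval -0.65 to 1.70, edgeR adjusted p = 0.939), but it was -0.27 without pair 1 and 1.40 without pair 2.

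Among genes for the interleukin-33, interleukin-3 and TSLP receptors and their signalling, 13 of 14 were tested and 0 were called. Their median log2 fold change was -0.09. Irak4, a kinase below the ST2 receptor, was higher in 3 of 3 pairs with a log2 fold change of 0.47 (unadjusted p 0.0322, adjusted p = 0.925 in edgeR), while its partner Irak1 had -0.43. The adaptor gene Myd88 and the transcription factor gene Stat5a, which were more abundant than the others, had 0.23 and -0.02.

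**Figure D2:**
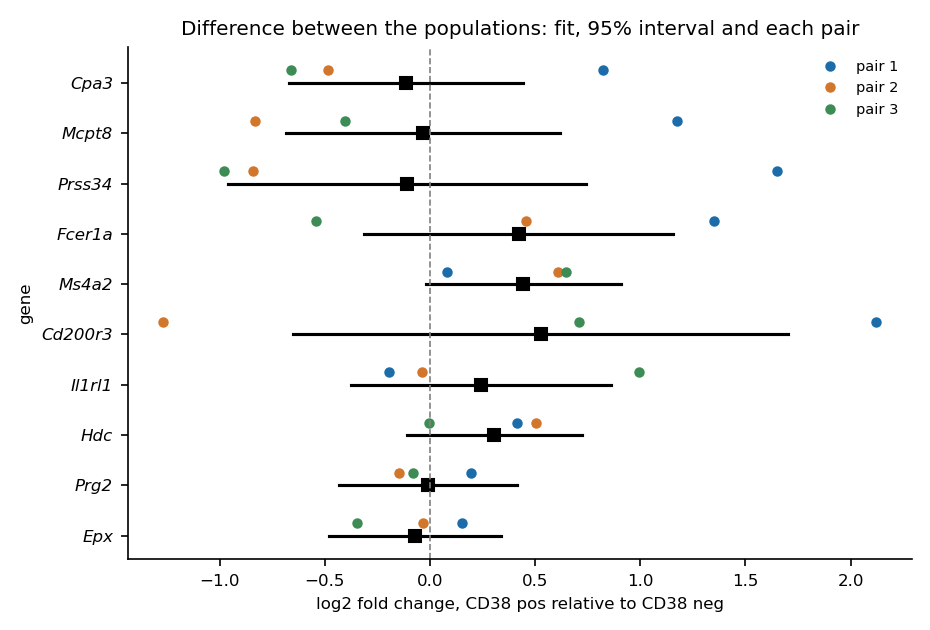
Log2 fold change of each gene, CD38-positive relative to CD38-negative: squares are the edgeR fit with the pair as a block, black lines its 95% interval, and coloured points the 3 pairs. All 10 intervals cross 0; the widest, for Cd200r3, runs from -0.65 to 1.70 and the paired points of Prg2 lie between -0.15 and 0.20.

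Hdc (ENSMUSG00000027360, chromosome 2, 126593667 to 126619299, minus strand), which encodes histidine decarboxylase, was the steadiest of the 10 genes. The enzyme makes histamine in basophils and mast cells and is also expressed by myeloid-biased stem and progenitor cells. It was at 296, 226 and 207 CPM in CD38-positive and at 222, 159 and 208 CPM in CD38-negative libraries, with the highest library at 1.86 times the lowest; for the other 9 genes that ratio was 2.84 to 5.29. The log2 fold change was 0.31 (SE 0.19, 95% interval -0.11 to 0.72, edgeR adjusted p = 0.929). The CD38-positive library was higher by 0.42 and 0.51 on the log2 scale in pairs 1 and 2 and level in pair 3 (-0.01).

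Genes for the storage and breakdown of histamine and for lipid mediators gave 0 calls among 14 tested of 19. Their median log2 fold change was 0.04. Slc18a2, the vesicular transporter that loads histamine and other amines, was at 75.7, 73.4 and 185 CPM in CD38-positive and at 109, 173 and 167 CPM in CD38-negative libraries. The fit gave -0.54 on the log2 scale (unadjusted p 0.0417, adjusted p = 0.926 in edgeR), with the opposite sign in pair 3. The leukotriene pathway genes Lta4h, Alox5ap and Alox5 were the most abundant of the list and had log2 fold changes of 0.25, -0.03 and 0.45. Cysltr2, a leukotriene receptor gene, was lower in the CD38-positive library of 3 of 3 pairs, with -0.80 (unadjusted p 0.0262, adjusted p = 0.925 in edgeR).

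Prg2 and Epx had values close together within each pair and farther apart between pairs. Prg2 (ENSMUSG00000027073, chromosome 2, 84980461 to 84983632, plus strand) was at 1173 and 1024 CPM in the CD38-positive and CD38-negative library of pair 1, at 569 and 629 CPM in pair 2, and at 410 and 434 CPM in pair 3. Every library of pair 1 was above every library of pair 2, and those of pair 2 above those of pair 3. The log2 fold change between the populations was -0.01 (SE 0.20, 95% interval -0.43 to 0.41, edgeR adjusted p = 0.995).

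Epx (ENSMUSG00000052234, chromosome 11, 87864000 to 87875536, minus strand) was at 133 and 119 CPM in the CD38-positive and CD38-negative library of pair 1, at 98.8 and 101 CPM in pair 2, and at 25.1 and 32.0 CPM in pair 3. Pair 3 was well below the others in both populations. Between the populations the log2 fold change was -0.07 (SE 0.19, 95% interval -0.48 to 0.34, edgeR adjusted p = 0.973). The means of log2 CPM of the 3 pairs spanned 2.15 for Epx, while the libraries of a pair lay at most 0.35 apart.

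**Figure D3:**
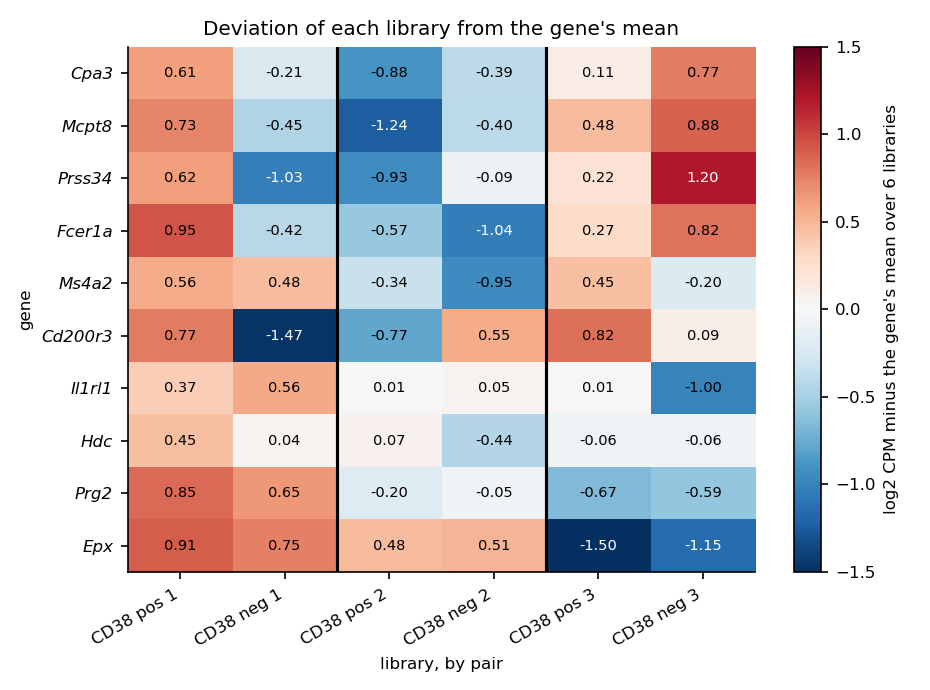
Log2 CPM of each gene in each library minus the gene's mean over the 6 libraries, with libraries set out by pair and red above, blue below the mean. The bottom rows, Prg2 and Epx, change between pairs (Epx from 0.91 in CD38-positive replicate 1 to -1.498 in CD38-positive replicate 3), whereas Cpa3, Mcpt8 and Prss34 change within pair 1 as well, Prss34 from 0.62 to -1.03.

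Differences among the 3 pairs were then tested with the pair terms of the same edgeR fit, a test added after these values were seen. The test takes both libraries of a pair as separate replicates of that pair, and what they share is not stated. Its p-values therefore set the spread between pairs against the spread within pairs. Of 14785 genes 17 passed an adjusted p of 0.05 (0.115%), and Epx was the 1 gene of the 10 among them (edgeR adjusted p = 0.00381). That call rested on pair 3: between pairs 1 and 2 alone Epx had an adjusted p of 0.828. Prg2 had an adjusted p of 0.0719. With unadjusted values 7 of the 10 genes had p under 0.05 in this edgeR test, where 13.5% of all tested genes did. Cd200r3, Hdc and Il1rl1 were the others. Such a p was also found for 7 of 8 B and plasma cell, 6 of 7 erythroid, 5 of 10 neutrophil and 4 of 7 HSC markers. Among monocyte and dendritic cell markers it was 2 of 7, and among T and NK cell markers 0 of 5 tested. Megakaryocyte markers had 1 of 6, and endothelial and stromal markers 3 of 6 tested. The other gene lists ran from 0 of 15 IgE receptor signalling genes to 7 of 10 tested eosinophil genes. The 17 called genes included 1 erythroid and 1 B and plasma cell marker. Mcpt8 and Cpa3 had adjusted p-values of 0.182 and 0.240.

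Other eosinophil genes were measured beside them. Prg3, a homologue of major basic protein, was the gene closest to Prg2 among all tested, with a Pearson r of 0.998 in log2 CPM over the 6 libraries. The gene closest to Cpa3, Ppp1r42, had 0.998 as well, so an r of this size is a description only. Prg3 had 0.048 to 0.053 reads per Prg2 read in every library. By contrast Epx had 0.0612 and 0.0736 reads per Prg2 read in the libraries of pair 3, 0.174 and 0.161 in pair 2, and 0.113 and 0.117 in pair 1. Epx thus did not keep a fixed ratio to Prg2. The eosinophil-associated ribonuclease genes Ear1 and Ear6 were the other genes of the eosinophil list among the 17 (edgeR adjusted p = 0.0155 and 0.00148 among pairs), with 14.6 to 139 CPM and 12.0 to 109 CPM. Ear2 had 19.2 to 103 CPM (adjusted p = 0.0661). They were not level within pairs: in pair 3 the log2 difference between the libraries was -1.13 for Ear1 and -0.82 for Ear2. These ribonuclease genes are near-identical copies, so the division of reads among them is uncertain. Siglecf, an eosinophil surface lectin, was at 8.99 to 25.2 CPM. Some genes of the list did not step down from pair 1 to pair 3. Cebpe was at 52.2, 38.2 and 69.7 CPM in CD38-positive and at 52.5, 73.9 and 93.9 CPM in CD38-negative libraries. Ccr3 and Adgre1, named here after their values were seen, had unadjusted p-values of 0.717 and 0.878 among pairs in edgeR.

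Between the populations 10 of the 12 listed eosinophil genes could be tested, 0 were called, and the median log2 fold change was -0.10. Siglecf had 0.42, higher in 3 of 3 pairs (unadjusted p 0.0995, adjusted p = 0.926 in edgeR). Cebpe, a transcription factor gene of granulocyte maturation in eosinophils and neutrophils alike, had -0.46 and was lower in 3 of 3 pairs (unadjusted p 0.0490, adjusted p = 0.926).

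Marker sums of other cell types are given beside the eosinophil values. Prg2 and Epx together summed to 1306 and 1143 CPM in pair 1, 668 and 730 CPM in pair 2, and 436 and 466 CPM in pair 3, CD38-positive library first. The 7 erythroid markers summed to 8917 and 7313 CPM in pair 1, 3724 and 5360 CPM in pair 2, and 2485 and 3655 CPM in pair 3, the same order of pairs, though the lowest library of pair 2 (3724 CPM) and the highest of pair 3 (3655 CPM) were close. The 10 neutrophil markers did not follow that order, with 68772 and 78755 CPM in pair 2 against 91955 and 127535 CPM in pair 3. The 7 HSC markers summed to 339 and 445 CPM in pair 1, 338 and 1075 CPM in pair 2, and 636 and 559 CPM in pair 3. The part of these cell types in the eosinophil values was not tested.

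**Figure D4:**
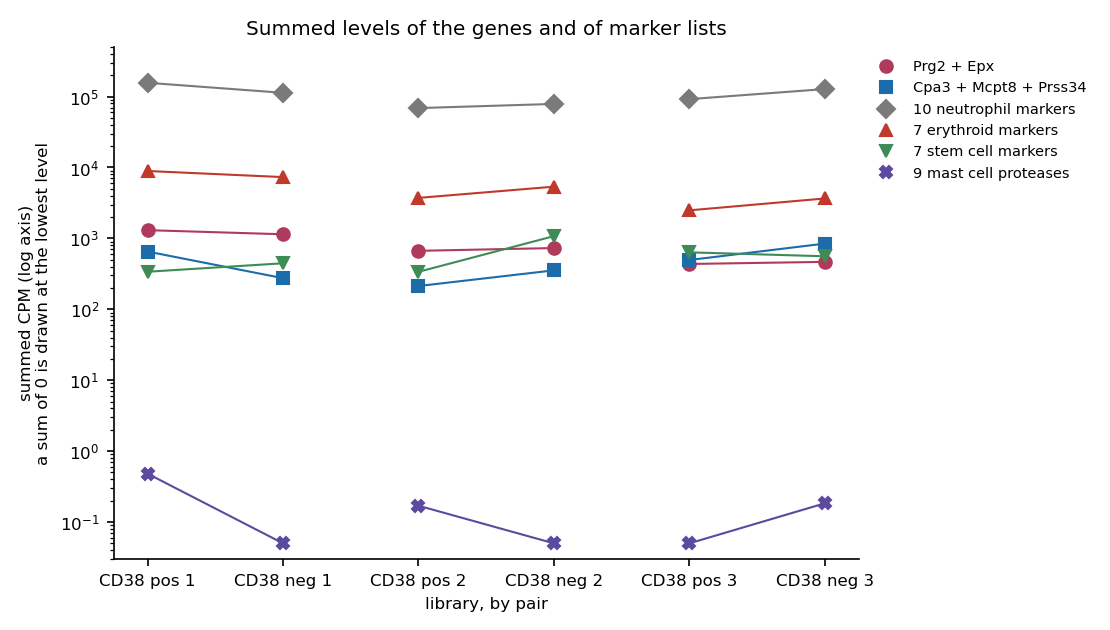
Summed CPM (log axis) of Prg2 with Epx, of Cpa3 with Mcpt8 and Prss34, and of marker lists in the 6 libraries by pair; lines join the libraries of a pair, and a sum of 0 is drawn at the lowest level. Prg2 with Epx steps down from 1306 CPM in CD38-positive replicate 1 to 436 CPM in CD38-positive replicate 3, while the 9 mast cell chymases and tryptases stay at or below 0.48 CPM.

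The read ratio of Mcpt8 to Prg2 was not tested and is given as a description. Mcpt8 had 0.123, 0.0648 and 0.296 reads per Prg2 read in CD38-positive replicates 1, 2 and 3, and 0.0624, 0.104 and 0.370 in the CD38-negative libraries. Both libraries of pair 3 were above all the others. Over the 6 libraries the Pearson r of log2 CPM was 0.86 between Prg2 and Epx, -0.09 between Mcpt8 and Prg2, and -0.51 between Mcpt8 and Epx, given as a description.

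The genes closest in pattern to the other members are given as a description. Each r is the largest among all tested genes over 6 libraries, so its size is partly due to that choice. Closest to Hdc was Rgs19 (r of 0.988). Closest to Cpa3 was Ppp1r42 (0.998), to Mcpt8 Ehhadh (0.994), to Prss34 Gm17018 (0.990) and to Ms4a2 Gm7488 (0.988). Fcer1a had Gm807 (0.994), Cd200r3 had Ccl2 (0.990), Il1rl1 had Tnrc6c (0.982) and Epx had Ddx4 (0.990). Ccl2 and Ddx4 had low means of 0.499 and 1.44 CPM, so their patterns rest on few reads.

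Transcription factors of these lineages gave 0 calls among 15 of 15 tested, with a median log2 fold change of -0.04. Xbp1, a factor needed by secretory cells including eosinophils, was the most abundant at 391 to 640 CPM (0.17). Irf8, a factor of monocytes, dendritic cells and early basophil and mast cell progenitors, was at 171, 254 and 110 CPM in CD38-positive and at 137, 94.96 and 59.9 CPM in CD38-negative libraries. It was higher in 3 of 3 pairs with a log2 fold change of 0.87 (SE 0.22, unadjusted p 0.00151, adjusted p = 0.695 in edgeR), and the 7 monocyte and dendritic cell markers summed to 528 to 808 CPM in CD38-positive and 390 to 479 CPM in CD38-negative libraries; their part was not tested. Spi1 had 0.06, and Ikzf2, an Ikaros family gene, had -0.63 and was lower in 3 of 3 pairs (unadjusted p 0.0354, adjusted p = 0.926 in edgeR). Gata2 and Gata1, named here after their values were seen, had -0.10 and -0.29.

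Of the further surface and cytokine genes of mast cells and basophils, 15 of 20 could be tested, 0 were called, and the median log2 fold change was 0.01. Cd63, a granule membrane protein that reaches the surface on activation, was at 383 to 670 CPM (-0.18). Ms4a3, a gene of granulocyte and monocyte progenitors that basophils also express, was at 244 to 542 CPM (-0.06). Kit, the stem cell factor receptor of mast cells and HSCs alike and part of the sort, had -0.90 (adjusted p = 0.925 in edgeR). It was at 133, 110 and 227 CPM in CD38-positive and at 210, 556 and 191 CPM in CD38-negative libraries, so CD38-negative replicate 2 stood above the others and pair 3 had the opposite sign. Il4, the cytokine gene transcribed by resting basophils, was at 4.50, 3.06 and 8.66 CPM in CD38-positive and at 5.66, 8.51 and 9.05 CPM in CD38-negative libraries, with -0.61 (unadjusted p 0.0894, adjusted p = 0.926). Tissue mast cell receptor gene Mrgprb2 was at 0 in every library, as was the cytokine gene Il13.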

How the data were processed

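The deposited files hold raw read counts per Ensembl gene, 1 file for each of the 6 libraries, with 49585 genes each. Reads were processed by the authors with cutadapt, STAR and HTSeq 0.6.1p1 on GRCm38 (mm10), per the submitters' processing notes; the annotation release and the strand setting are not given in the sources used here, so overlapping and near-identical genes are uncertain. Symbols matched 49326 identifiers, and coordinates and exon lengths came from GENCODE M21 (GRCm38). No exon of the 10 genes overlapped that of another counted gene.

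The 10 genes and all lists were chosen with earlier results of these data known; 1 listed stem cell marker is not reported here. filterByExpr kept 14785 genes. Counts were scaled by TMM and tested with edgeR 4.0.16 (R 4.3.3) by quasi-likelihood F-test in a model of pair plus population, with Benjamini-Hochberg adjustment over all tested genes. The pairing comes from the design text, and after subtracting the mean of each population, partners correlated at 0.341, 0.118 and 0.24. No libraries of the same population were duplicates: between them chi-square over degrees of freedom was 52.7 or more. Libraries of different populations were not compared in this way. Named beside the 10 genes were, per list, the 3 with the highest mean CPM and the 2 with the smallest p, plus any past the threshold, and the closest genes by Pearson r of log2 CPM (prior count 2). The procedure was tested on simulated data. Also fitted were a model lacking the block, DESeq2 1.42.0, its size factors, unscaled totals, other filters and leaving out each pair; the test among pairs was added after seeing the data. Reads carry no molecular identifiers, so floors cover counting error only.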

Additional observations from a re-analysis of the deposited data

How the results depend on the processing

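For the 10 genes no alternative gave a call between the populations. Of 90 refitted log2 fold changes 75 kept their sign and 15 changed it. Without the replicate block Mcpt8, Prg2 and Epx had 0.0593, 0.0441 and 0.0240. When each pair was left out in turn the range was -0.57 to 0.17 for Cpa3, -0.62 to 0.37 for Mcpt8, -0.91 to 0.40 for Prss34, -0.0617 to 0.93 for Fcer1a, -0.27 to 1.40 for Cd200r3, -0.11 to 0.0453 for Prg2, -0.19 to 0.0600 for Epx and -0.12 to 0.47 for Il1rl1. Ms4a2 (0.34 to 0.63) and Hdc (0.19 to 0.46) were higher in CD38-positive cells under all 9 alternatives, without a call. The count of genes past the threshold, 2 (1 higher, 1 lower), was 0 without the replicate block (0 higher, 0 lower; 417 at an unadjusted p under 0.05) and 0 with unscaled totals (0 and 0; 595). It was 11 in DESeq2 (8 higher, 3 lower), 7 with DESeq2 size factors (4 and 3), 80 with no filter (41 and 39) and 13 with a mean of at least 10 counts (6 and 7). Leaving out a pair gave 2 to 41 genes (most without pair 2), of which 0 to 27 were higher and 2 to 14 lower. Among pairs, the 17 genes became 5 with pair alone in the model, 321 in DESeq2, 7 with unscaled totals, 694 with no filter and 29 with a mean of at least 10 counts, and 5 (without pair 1) to 933 (without pair 2) when a pair was left out. The 1 of the 10 genes called there became 3 in DESeq2 (Epx, Prg2 and Ms4a2), 7 with no filter, and 1 to 3 when a pair was left out; without pair 3 the 1 was Ms4a2 (adjusted p = 0.0496), and Epx was called under the other 8 alternatives (adjusted p of 0.0251 or less). The cause of these shifts was not tested. Cd200r3 had no adjusted p in the DESeq2 test among pairs. No scaling shifted the median of all tested genes by 0.1 on the log2 scale. The floor of 3 counts, up to 0.183 CPM, limits what this depth can show, and groups of 3 are too small to single out a library.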
